A study of Mus musculus with 12 samples.

Results

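The livers of Jackson mice that had shared cages with Taconic mice were compared with the livers of Taconic mice that had lived among themselves. The comparison takes 6 of the 12 libraries of the series, 3 from the cohoused Jackson mice (CoJAX) and 3 from the Taconic mice housed apart (TAC). It asks how near Jackson livers exposed to Taconic cage mates lie to Taconic livers. Of 23909 genes in the deposited table, 11446 (47.9%) had an RPKM of 1 or more in at least 3 of these 6 libraries and were tested. RPKM is a read count corrected for gene length and for sequencing depth.

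The mice were C57BL/6 from 2 vendors, Jackson and Taconic, and liver was taken after 4 weeks of shared housing. The remaining groups, 3 libraries each, were Jackson mice housed with Jackson mice (JAX) and the Taconic cage mates of the CoJAX mice (CoTAC). CoJAX and TAC thus differ in vendor and in cage mates together, and these cannot be told apart within this pair. The sources used here give no sex, age, cage or substrain designation. Nor do they say whether libraries of a group are different animals, so the p-values reflect variation among these libraries, part of which may be technical.

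Mice eat droppings, and cage mates exchange gut microbes in this way while each animal keeps the genome of its own colony. Colonies of C57BL/6 mice kept apart for many generations have also drifted genetically, and the deletion in Nnt of the Jackson C57BL/6J line is a widely used marker of that drift. In the liver, microbial products and nutrients act on hepatocytes in part through nuclear receptors. Among them is peroxisome proliferator-activated receptor alpha (PPARα), which binds fatty acids and switches on genes of fatty acid oxidation.

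All 6 libraries carried the hepatocyte markers at high level, with a summed RPKM of 10 markers of 3810 to 6690 in TAC and 3590 to 5550 in CoJAX. Markers of Kupffer cells, the resident macrophages of the liver, summed to 532 to 735 RPKM over 13 genes in TAC and to 423 to 560 in CoJAX, and 0 of the 13 passed the test. Of 13 markers of pancreas and gut, 7 were listed at 0 in all 6 libraries (Amy2a5, Cela3b, Cpa1, Pnlip, Reg3g, Try4 and Try5), and the sum was 164 to 300 RPKM in TAC and 181 to 247 in CoJAX. Depth differed between libraries. Set to 1 in JAX library 1, it was 0.794, 1.05 and 1.75 in TAC and 1.09, 1.27 and 1.88 in CoJAX, which corresponds to an estimated 1490000 to 3530000 reads. Library TAC 1 stood apart from TAC 2 and TAC 3, with a score of -25.7 on the first principal component of all 12 libraries against 3.4 and 12.9. CoJAX 1 and CoJAX 2 had a median RPKM of 476 and 469 over 34 gene models of small RNAs, against 22.8 in CoJAX 3 and 30.3 to 53.5 in TAC. At the top of the range RPKM fell as depth rose. Alb had an RPKM of 1144, 912 and 548.8 in TAC and 883.8, 760.2 and 511.5 in CoJAX. Multiplied by relative depth, these values were 909 to 963 in TAC and 961 to 965 in CoJAX.

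With all libraries, the distances between CoJAX and TAC libraries overlapped the distances within each group. The distance between a pair of libraries was taken as the median over the 11446 genes of the absolute difference in log2(RPKM + 0.5). It averaged 0.253 over the 9 pairs of a CoJAX and a TAC library (0.170 to 0.385), 0.276 over the 3 pairs within TAC (0.224 to 0.329) and 0.220 over the 3 pairs within CoJAX (0.201 to 0.236). The mean between the groups minus the mean within them was 0.00572 (one-sided exact permutation test, p = 0.2, where 0.1 is the smallest possible). This value rested on single TAC libraries. It was 0.0467 without TAC 3 (exact permutation p = 0.1) and 0.0225 without TAC 2 (exact permutation p = 0.2), and it turned negative without TAC 1, at -0.0109, and without any CoJAX library (-0.0155 to -0.00336). The nearest pair was CoJAX 3 and TAC 3, at 0.170, which were also the deepest library of each group. The farthest was CoJAX 2 and TAC 1, at 0.385.

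Jackson livers without Taconic cage mates were farther from the TAC libraries. The mean distance of a library to the TAC libraries was 0.253 ± 0.0199 in CoJAX (SD, n = 3) and 0.320 ± 0.0175 in JAX (SD, n = 3). The difference of -0.0669 had a two-sided exact permutation p of 0.1, the smallest that 3 libraries against 3 allow. The order turned at library TAC 1. The 3 pairs of a JAX library with TAC 1 were at 0.224 to 0.255 and the 3 pairs of a CoJAX library with TAC 1 at 0.293 to 0.385. For TAC 2 and TAC 3 it was the other way round, with 0.317 to 0.397 for the 6 pairs with JAX and 0.170 to 0.252 for the 6 pairs with CoJAX. Relative depth moved with this pattern, since JAX (0.758 to 1) and TAC 1 (0.794) were the shallow libraries, and its part in the distances was not tested. Without TAC 3 the difference between CoJAX and JAX shrank to -0.0106 (exact permutation p = 0.8), without TAC 2 it was -0.0418 and without TAC 1 it grew to -0.148 (exact permutation p = 0.1 in both).

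**Figure D1:**
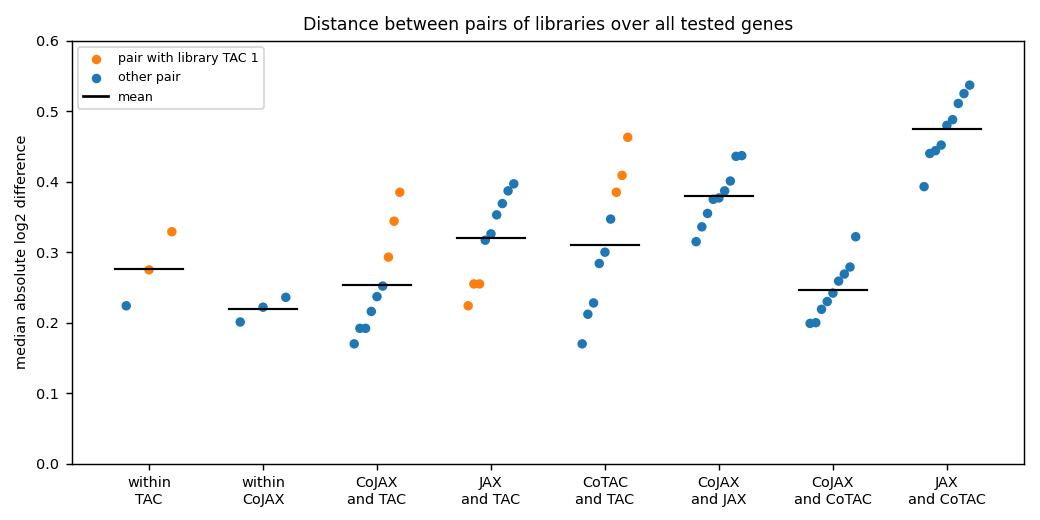
Median absolute difference in log2(RPKM + 0.5) over the 11446 tested genes (vertical axis) for each pair of libraries, grouped by the groups that the libraries belong to (horizontal axis). Points are pairs, orange where library TAC 1 is a member, and bars are means. The CoJAX and TAC pairs lie between 0.170 and 0.385, with the 3 pairs of TAC 1 on top, and overlap the pairs within either group.

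Gene by gene, 12 of the 11446 genes (0.105%) differed between CoJAX and TAC at an adjusted p under 0.05 (limma-trend on log2(RPKM + 0.5), Benjamini-Hochberg over all tested genes). Of these, 5 were higher in CoJAX (0.0437%) and 7 lower (0.0612%). The genes Bglap3, Hist1h4f, Snora81 and Plcd3 reached 1 RPKM in the 3 libraries of 1 group and in 0 of the other, as did 50 of the tested genes in all. Such genes could enter only by differing, so their p-values are no independent support, and the other 8 calls are 2 higher and 6 lower. The other pairings of the 4 groups, read from the same fit, called more genes, with 1 exception. They called 499 between TAC and JAX (4.36%), 2887 between CoJAX and JAX (25.2%), 102 between CoTAC and TAC (0.891%) and 11 between CoJAX and CoTAC (0.0961%). The fit holds no term for depth, and JAX (0.758 to 1) and CoJAX (1.09 to 1.88) do not overlap in relative depth. The part of depth in these counts was not tested, and the CoJAX minus JAX values of single genes below have the same limit. A missed threshold does not show that values are alike, so the intervals were read as well. The 95% interval of the difference lay wholly within 1 log2 unit of 0 for 9489 genes (82.9%) and wholly beyond 1 unit for 22. The median absolute difference was 0.17 log2 units, beside a median standard error of 0.19. An unadjusted p under 0.05 was reached by 997 genes, and in 1468 genes (12.8%) the 3 CoJAX and 3 TAC values did not overlap.

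The number of 12 depended on single libraries. In a fit of the 6 CoJAX and TAC libraries alone 5 genes passed, among them Wdfy1 (adjusted p = 0.036), and Ide (0.0601), Nnt (0.183) and Cyp4a10 (0.0707) did not. It was 2 without CoJAX 3, 3 without CoJAX 1, 5 without TAC 2, 6 without JAX 1 and 24 without CoTAC 2. Among the 24 genes without CoTAC 2 were Tec (adjusted p = 0.0251), Ddit4 (0.0135), Cyp4a31 (0.0251), Orm2 (0.0411) and Lcn2 (0.0348), which did not pass with all libraries. It was 8 without TAC 1, of which 6 were among the 12, and 2 when relative depth was added to that fit.

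**Figure D2:**
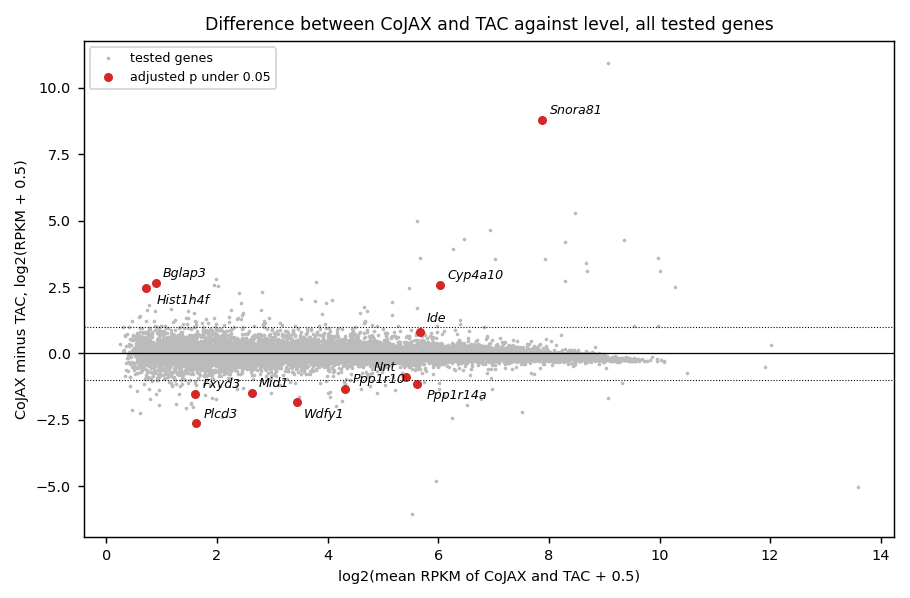
Difference between CoJAX and TAC in log2(RPKM + 0.5) (vertical axis) against the mean level of the 2 groups as log2(RPKM + 0.5) (horizontal axis) for the 11446 tested genes. Red points are the 12 genes with an adjusted p under 0.05, and dotted lines mark 1 log2 unit. Most genes lie between the dotted lines, and the cloud tilts below 0 at the highest levels.

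Genes known to differ between C57BL/6 substrains held 3 of the 12 calls. Of 8 such genes on the list used here, 5 passed the filter on low values, and 3 of the 5 passed the test, 1 higher and 2 lower in CoJAX, beside 0.105% of all tested genes. The list was drawn up because these genes mark vendor colonies, so its direction is no independent evidence of a difference.

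Wdfy1, which encodes an endosomal adaptor protein of Toll-like receptor signalling, had an RPKM of 15.9, 13.5 and 20.04 in the TAC libraries and 4.82, 3.60 and 4.28 in the CoJAX libraries. Every CoJAX value was below every TAC value, and the mean was 3.89 times higher in TAC. The log2 difference was -1.83 ± 0.18 (SE, adjusted p = 0.00323). The gene passed in each of 26 alternative analyses (adjusted p 0.00164 to 0.0427). JAX livers held 7.22, 6.78 and 9.89 RPKM, also above CoJAX (log2 CoJAX minus JAX -0.83, adjusted p = 0.00987), while the CoTAC livers reached 20.2 to 22.5.

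Ide, which encodes the insulin-degrading enzyme, had an RPKM of 35.9, 37.6 and 36.7 in TAC and 59.1, 69.0 and 63.6 in CoJAX. The groups did not overlap, and the CoJAX mean was 1.74 times the TAC mean (log2 difference 0.79 ± 0.10, adjusted p = 0.00894). JAX livers stood at 50.6 to 59.0 and CoTAC livers at 35.5 to 39.8, so the 4 groups fell by vendor. Without CoJAX 3 the adjusted p of Ide was 0.0747, and in the fit of the 6 libraries alone it was 0.0601. Fgfbp3, a gene for a binding protein of fibroblast growth factors that lies beside Ide on chromosome 19, did not pass the filter on low values. Its RPKM was 0.750, 0.283 and 0.340 in TAC and 1.64, 0.939 and 2.06 in CoJAX, and it is given without a test.

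Nnt, which encodes the nicotinamide nucleotide transhydrogenase of the inner mitochondrial membrane, had an RPKM of 45.1, 57.6 and 61.4 in TAC and 25.5, 33.9 and 28.8 in CoJAX. Every CoJAX library was below every TAC library (log2 difference -0.88 ± 0.14, adjusted p = 0.0472). CoJAX exceeded JAX, where the values were 16.96, 19.8 and 19.4 (log2 difference 0.63, adjusted p = 0.011). The call between CoJAX and TAC held in 3 of 12 fits that each left out a library. It was lost without any of JAX 1, JAX 2, JAX 3, TAC 2, TAC 3, CoJAX 1, CoJAX 3, CoTAC 1 or CoTAC 3, with an adjusted p of up to 0.237, while the difference stayed between -1.01 and -0.79.

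Of the rest of the list, Entpd4, a gene for a nucleotide phosphohydrolase of the Golgi and lysosome, had an RPKM of 21.6, 26.0 and 30.6 in TAC and 38.9, 48.3 and 52.1 in CoJAX. Its groups did not overlap, but it did not pass (log2 difference 0.82 ± 0.14, adjusted p = 0.0587, and 0.0392 without TAC 3). Nlrp12, a gene for an inflammasome-related sensor, overlapped between the groups (0.33 ± 0.23, adjusted p = 0.713). Crb1 was listed at 0 in all 12 libraries, and Cyfip2 reached at most 0.710 RPKM in any of them.

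**Figure D3:**
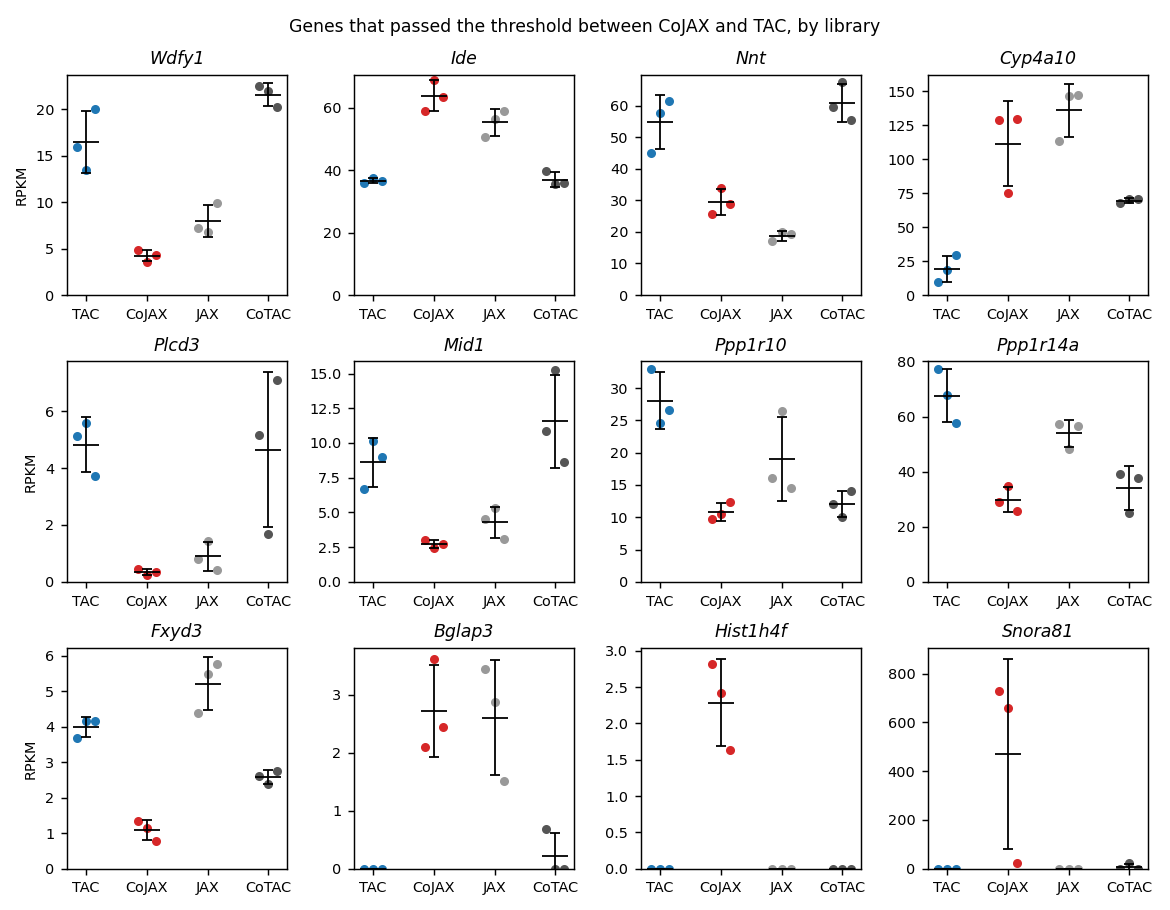
RPKM (vertical axes, each from 0) of the 12 genes that passed the threshold between CoJAX and TAC, in the 3 libraries of each group (points), with the mean and SD in black. In the 12 panels no CoJAX value reaches into the TAC values. For Ide, Nnt, Wdfy1, Cyp4a10, Plcd3, Mid1 and Bglap3 both Jackson groups lie on the same side of both Taconic groups.

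Cyp4a10 was higher in CoJAX by a larger log2 difference than any other called gene except Bglap3 and Snora81, whose limits are given below. The Cyp4a genes encode cytochrome P450 enzymes that hydroxylate the last carbon of fatty acids, and Cyp4a10 and Cyp4a14 are classic PPARα targets in mouse liver. They lie beside each other on chromosome 4 and are alike in sequence, which bears on how reads are assigned. A stretch of 120 coding bases (bases 874 to 993 of Cyp4a10, Cyp4a31 and Cyp4a32, bases 868 to 987 of Cyp4a14) is shown from GENCODE M21 transcripts of build GRCm38, with letters that differ from Cyp4a10 in capitals.
Cyp4a10: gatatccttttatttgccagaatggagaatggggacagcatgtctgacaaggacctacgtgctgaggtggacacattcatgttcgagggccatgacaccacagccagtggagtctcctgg
Cyp4a32: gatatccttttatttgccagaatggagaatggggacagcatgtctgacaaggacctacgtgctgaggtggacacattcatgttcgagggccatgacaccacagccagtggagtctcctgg
Cyp4a31: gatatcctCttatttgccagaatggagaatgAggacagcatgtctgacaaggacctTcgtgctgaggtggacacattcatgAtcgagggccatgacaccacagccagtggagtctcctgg
Cyp4a14: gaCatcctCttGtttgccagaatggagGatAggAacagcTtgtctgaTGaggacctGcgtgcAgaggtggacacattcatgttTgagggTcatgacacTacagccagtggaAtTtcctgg
The stretch sits in the longest run that Cyp4a10 and Cyp4a32 share base for base, of 179 bases, and it shows 4 differences in Cyp4a31 and 16 in Cyp4a14. Over the coding length, identity to Cyp4a10 was 97.2% for Cyp4a32, 96.6% for Cyp4a31 and 75.4% for Cyp4a14. Of the 50-base windows of the Cyp4a10 transcript, 25% also occurred in Cyp4a32 and 15.3% in Cyp4a31, and 0% in Cyp4a14. The values of Cyp4a10, Cyp4a31 and Cyp4a32 are therefore uncertain where reads could be split among them, while those of Cyp4a14 share no such window with these 3 genes.

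Cyp4a10 had an RPKM of 9.89, 18.4 and 29.1 in TAC and 129, 75.1 and 130 in CoJAX. The lowest CoJAX library was above the highest TAC library, and the mean was 5.81 times higher in CoJAX (log2 difference 2.59 ± 0.31, adjusted p = 0.00848). The adjusted p of Cyp4a10 was 0.0549 without CoJAX 1, 0.0747 without CoJAX 3 and 0.0707 in the fit of the 6 libraries alone, where 0 PPARα targets passed. JAX livers lay at 114 to 147 RPKM and CoTAC livers at 67.4 to 70.7. TAC was thus the low group of the 4, and every Jackson value was above every Taconic value.

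Cyp4a14 had an RPKM of 7.62, 4.78 and 5.17 in TAC and 129, 23.2 and 134 in CoJAX. It did not pass (log2 difference 3.58 ± 0.63, adjusted p = 0.0625), though its groups did not overlap. The library CoJAX 2 was the low one of its group for Cyp4a10 and Cyp4a14, and without it the adjusted p of Cyp4a14 was 0.00589 (0.0258 without CoTAC 2). Cyp4a31 had 2.52, 1.17 and 1.88 RPKM in TAC and 6.55, 7.58 and 5.84 in CoJAX (log2 difference 1.64 ± 0.30, adjusted p = 0.0647). Cyp4a32 had 21.1, 12.6 and 13.4 in TAC and 26.8, 28.1 and 24.6 in CoJAX (0.77 ± 0.19, adjusted p = 0.217). For neither did the groups overlap. Cyp4a12a, the male-biased member of the family, had overlapping values (-0.10 ± 0.19, adjusted p = 0.877).

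Among all 30 PPARα targets listed, 29 passed the filter, and Cyp4a10 was the 1 that passed the test (0 passed lower, beside 0.0437% of all genes higher). The difference was positive in 25 of the 29, with a median of 0.21 log2 units beside -0.00317 over all tested genes. An unadjusted p under 0.05 was reached by 13 members with CoJAX higher and by 0 with CoJAX lower. Over all tested genes it was reached by 997 of 11446 in either direction. In 10 of the 29 the groups did not overlap, beside 12.8% of all genes. The members and the list were chosen with these data known, so the counts describe the list and do not test it.

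Several members outside the Cyp4a family had values that did not overlap between the groups. Acot1, a cytosolic acyl-CoA thioesterase, had 23.2, 18.5 and 14.2 RPKM in TAC and 69.1, 35.3 and 52.9 in CoJAX (log2 difference 1.44 ± 0.33, adjusted p = 0.2). Acot4, a peroxisomal thioesterase, had 7.95, 6.61 and 9.69 in TAC and 16.6, 13.6 and 16.5 in CoJAX (0.91 ± 0.17, adjusted p = 0.0647). In these genes the CoJAX values lay wholly above the TAC values without passing the threshold. Vnn1, a pantetheinase, had 6.84, 9.71 and 22.5 in TAC and 28.8, 37.2 and 35.1 in CoJAX (1.504 ± 0.32, adjusted p = 0.147). Leaving out TAC 3, the high library of its group, brought the adjusted p of Vnn1 to 0.00385. Pex11a, which divides peroxisomes, had 64.0, 104 and 109 in TAC and 127, 158 and 142 in CoJAX (0.65 ± 0.22, adjusted p = 0.429).

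Acadvl, a very long chain acyl-CoA dehydrogenase of mitochondrial fatty acid oxidation, differed by 0.05 ± 0.12 log2 units, and its groups overlapped. The intervals of 17 of the 29 members lay within 1 log2 unit of 0, beside 82.9% of all tested genes. In 8 of the members the level exceeded 25% of the RPKM of Alb, where RPKM fell as depth rose. With relative depth as a covariate 28 of 29 members were positive, 19 reached an unadjusted p under 0.05 with CoJAX higher, and the median was 0.25. The count over all genes in the depth fit is not reported here, so the 19 have no share to stand beside. With those high genes left out of the fit, 19 of 21 members were positive and the median was 0.52. Of the 29 members, 21 were positive without TAC 3 (median 0.18) and 21 without CoJAX 1 (0.185). Without CoJAX 2 it was 23 (0.185) and without TAC 1 all 29 (0.243). With array weights 25 were positive and the median was 0.147.

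**Figure D4:**
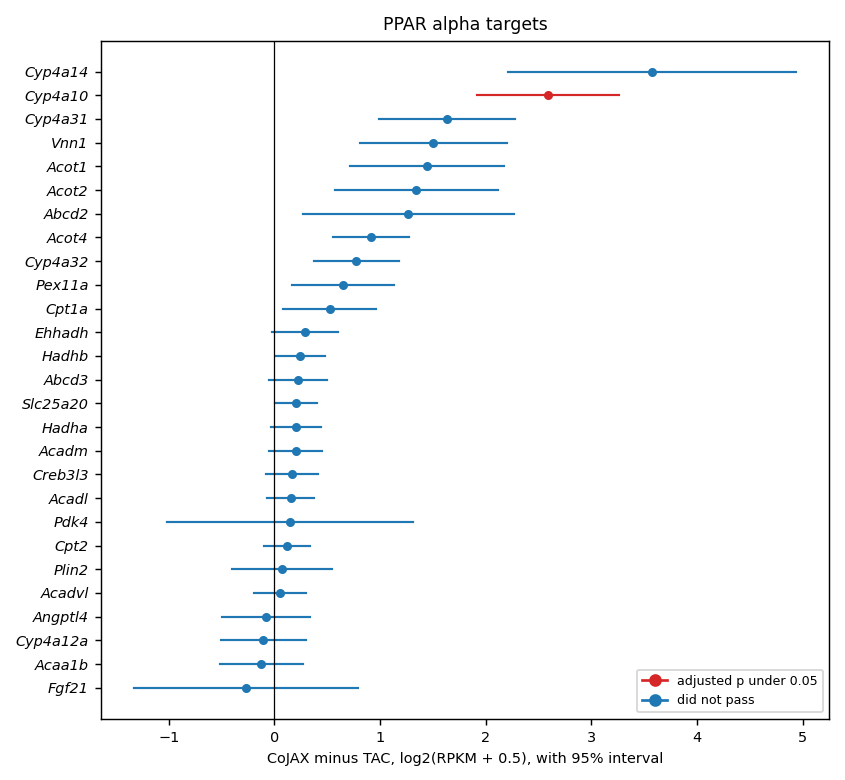
Difference between CoJAX and TAC in log2(RPKM + 0.5) with its 95% interval (horizontal axis) for measured PPARα targets (vertical axis, ordered by difference; not every member is drawn). Cyp4a10, in red, passed the threshold, and most points lie above 0, from Cyp4a14 at 3.58 down to Fgf21 at -0.27.

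A further 4 of the 12 genes were lower in CoJAX and belong to no list used here. Plcd3, a phospholipase C of the delta class, had an RPKM of 5.14, 5.58 and 3.73 in TAC and 0.450, 0.257 and 0.348 in CoJAX. That was 13.7 times lower in the mean (log2 difference -2.63 ± 0.41, adjusted p = 0.0472). Plcd3 passed the filter on low values through TAC alone, and in a fit without that filter its adjusted p was 0.0705. Values of such low genes, multiplied by relative depth, came in whole steps (within 0.02 of a step), and a step is at least 1 read. Plcd3 held 25, 36 and 40 steps in TAC and 3, 2 and 4 in CoJAX. JAX livers were also low, at 0.431 to 1.43, and CoTAC livers ranged from 1.69 to 7.09, so the 3 CoJAX and 3 JAX values were all below the TAC and CoTAC values. Mid1, a microtubule-associated ubiquitin ligase on the X chromosome, had 6.69, 10.1 and 9.004 in TAC and 3.02, 2.46 and 2.75 in CoJAX (-1.48 ± 0.24, adjusted p = 0.0472). Of the windows of the Mid1 transcript, 25.1% also occurred in the pseudogene Mid1-ps1, so its reads could be split. JAX livers held 3.09 to 5.29 and CoTAC livers 8.65 to 15.2.

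Ppp1r10, a nuclear targeting subunit of protein phosphatase 1, had 33.0, 24.6 and 26.6 RPKM in TAC and 9.71, 10.5 and 12.4 in CoJAX (-1.33 ± 0.21, adjusted p = 0.0472). Ppp1r14a, an inhibitor of myosin phosphatase in smooth muscle, had 77.3, 67.7 and 57.8 in TAC and 28.9, 34.9 and 25.8 in CoJAX (-1.17 ± 0.18, adjusted p = 0.0436). These genes did not follow vendor. The CoTAC livers, at 10.1 to 14.1 for Ppp1r10 and 24.8 to 39.3 for Ppp1r14a, lay near the CoJAX livers, and the JAX livers lay between CoJAX and TAC in the mean. The calls of these 4 genes were lost in 5 of 9 fits that left out a library for Plcd3, 9 of 12 for Mid1, 9 of 12 for Ppp1r10 and 7 of 12 for Ppp1r14a. The adjusted p rose to at most 0.195, 0.195, 0.237 and 0.195 without CoJAX 1. All 4 calls were also lost without CoJAX 3 (0.165, 0.179, 0.124 and 0.165) and JAX 1 (0.0818 for Plcd3, Ppp1r10 and Ppp1r14a and 0.0947 for Mid1).

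The last 4 of the 12 rested on very few steps in most libraries. Fxyd3, a regulator of the sodium pump, was at 2, 3 and 5 steps in TAC (3.68, 4.16 and 4.16 RPKM) and at 1 step in each CoJAX library (1.34, 1.15 and 0.777 RPKM). Its log2 difference was -1.52 ± 0.20 (adjusted p = 0.0124, and 0.0826 without TAC 2 and 0.0778 without CoJAX 3). Over the 3 libraries that is 10 steps against 3. Of the 50-base windows of the Fxyd3 transcript, 63.2% also occurred in Lgi4, so its reads could be split.

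The remaining 3 genes were at 0 in TAC and passed the filter on low values through CoJAX alone, so they had to differ once tested. Bglap3, an osteocalcin-related gene, was listed at 0 in the TAC libraries and at 2, 4 and 4 steps in CoJAX (2.104, 3.61 and 2.44 RPKM). The fitted difference of 2.66 ± 0.38 depends on the pseudocount (adjusted p = 0.0243, and 0.0734, 0.0953 and 0.0515 without TAC 1, TAC 2 and TAC 3). JAX libraries held 1 to 3 steps, and 14.2% of its windows occurred in other genes. Hist1h4f, a histone H4 gene, was at 1 step in each CoJAX library (2.82, 2.41 and 1.63 RPKM) and listed at 0 in the other 9 libraries of the series (2.46 ± 0.27, adjusted p = 0.00594). The call rests on a single step in each of 3 libraries, and it was lost with a pseudocount of 0.1 (adjusted p = 0.0541) and without TAC 1 with relative depth in the fit (0.083). Of its 50-base windows, 39.5% occurred in 11 other genes, and 31.6% in Hist1h4a. Snora81, a small nucleolar RNA within an intron of Eif4a2, was named after its values were seen, since the rule for named genes leaves out small RNAs. It was listed at 0 in TAC and at 19, 20 and 1 steps in CoJAX (730, 659 and 22.3 RPKM), and every window of it occurred in Eif4a2 transcripts (8.80 ± 1.43, adjusted p = 0.0472, lost in 7 of 9 fits without a library, at up to 0.175 without TAC 2, and 0.0832 with no filter on low values). Its high values were in CoJAX 1 and CoJAX 2, the libraries in which the small RNA models were high as a class. With genes under a mean of 5 RPKM removed, 3 genes passed, and all 3 were among the 12 (Wdfy1, Ide and Cyp4a10).

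Several genes lay just outside the threshold. Tec, a kinase of immune receptor signalling, had 9.40, 9.99 and 10.3 RPKM in TAC and 16.98, 16.6 and 17.2 in CoJAX (log2 difference 0.74 ± 0.125, adjusted p = 0.0541). Cyp2b10, the usual readout of the constitutive androstane receptor in mouse liver, had 0.695, 3.41 and 1.89 in TAC and 8.37, 9.36 and 15.1 in CoJAX (2.31 ± 0.39, adjusted p = 0.0541, and 0.041 without TAC 2). In both genes the lowest CoJAX value exceeded the highest TAC value. Of the 15 measured targets of that receptor, Cyp2b10 included, 0 passed, beside 0.105% of all tested genes. The groups did not overlap in 2, beside 12.8% of all tested genes, and the median was 0.03. Slc25a30, a mitochondrial carrier, had 3.49, 5.55 and 10.5 in TAC and 19.2, 27.7 and 24.9 in CoJAX (1.91 ± 0.34, adjusted p = 0.0647). Its JAX values of 1.93 to 2.84 and CoTAC values of 47.6 to 92.0 put CoJAX and TAC in the middle. It passed without TAC 3 (0.0175) and without CoTAC 2 (0.0334), and the difference between the pairs of groups passed for it also with relative depth in the fit (adjusted p = 0.0128).

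On the lower side, Ddit4, an inhibitor of mTOR signalling that responds to stress and glucocorticoids, had 136, 206 and 97.7 RPKM in TAC and 35.3, 34.0 and 37.7 in CoJAX (-1.96 ± 0.35, adjusted p = 0.0647). Moxd1, a monooxygenase of the dopamine beta-hydroxylase family, had 128, 163 and 49.1 in TAC and 1.33, 29.8 and 0.342 in CoJAX. Its groups did not overlap and the mean was 10.8 times higher in TAC, but CoJAX 2 stood far above the other libraries of its group and the gene did not pass (-4.82 ± 0.98, adjusted p = 0.125, and 0.000397 without CoJAX 2). JAX livers held at most 0.423 RPKM of Moxd1 and CoTAC livers 93.5 to 164.

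JAX and CoTAC, the groups that share no library with CoJAX and TAC, make a second pair of a Jackson and a Taconic group, and served to read the same genes elsewhere. Between JAX and CoTAC, 4973 genes passed (43.4%), and the median absolute difference was 0.44 log2 units against 0.17 between CoJAX and TAC. JAX and CoTAC do not overlap in depth (0.758 to 1 against 1.59 to 1.84), and with relative depth in the fit 190 genes passed. Vendor, cage mates and depth cannot be told apart in that pair. Of the 4973 genes, 4266 (85.8%) had a CoJAX minus TAC interval within 1 log2 unit of 0, beside 82.9% of all tested genes, 7 passed there with the same sign and 3 with the opposite sign. Those 7 are 58.3% of the 12 genes and the 3 are 25%. The 7, which include Bglap3 and Plcd3 from above, were Cyp4a10, Ide and Bglap3, higher in the Jackson group of each pair, and Plcd3, Wdfy1, Mid1 and Nnt, lower in it. The 3 with opposite signs were Fxyd3, Ppp1r10 and Ppp1r14a.

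The difference between the pairs was tested as a contrast of the same fit, and 3985 genes passed (34.8%), 2 of them with relative depth in the fit. The genes farthest apart in JAX and CoTAC but near in CoJAX and TAC included Hamp2, a hepcidin gene, with 258, 341 and 215 RPKM in JAX, 122, 126 and 70.1 in TAC, 77.8, 71.4 and 113 in CoJAX and 26.5, 54.8 and 43.1 in CoTAC. The TAC and CoJAX values of Hamp2 interleave between those of JAX and CoTAC, and the log2 difference was -0.26 ± 0.29. Lect1, a cartilage-related gene also called chondromodulin, had 4.26 to 4.50 RPKM in TAC, 4.997 to 6.21 in CoJAX 13.2 to 20.8 in JAX and 1.42 to 4.49 in CoTAC (0.35 ± 0.30). Cox7a1, a subunit of cytochrome c oxidase, and Pdzk1ip1, a small membrane protein, differed by 0.07 ± 0.37 and -0.07 ± 0.36 between CoJAX and TAC and by 2.52 and 2.54 between JAX and CoTAC. Nupl1, a nuclear pore protein, and Exoc4, an exocyst subunit, were low in JAX and differed by -0.10 ± 0.31 and -0.05 ± 0.30 between CoJAX and TAC. These 6 were picked as near, so their small differences are a description.

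Circadian clock genes varied widely within the groups. Dbp, a transcription factor driven by the clock, had an RPKM of 0.395, 0.595 and 94.1 in TAC and 4.90, 144 and 19.4 in CoJAX. Arntl, the partner of Clock in the activating complex, ran the other way, with 16.9, 24.6 and 1.96 in TAC and 25.3, 1.36 and 22.9 in CoJAX. TAC 3 and CoJAX 2 thus shared high Dbp and low Arntl, and the other 4 libraries had lower Dbp and higher Arntl. Dbp and Arntl were chosen after their values were seen. Of 18 measured clock genes 0 passed, 0 reached an unadjusted p under 0.05 and 0 had groups that did not overlap. Over all tested genes these were 0.105%, 997 of 11446 and 12.8%. Intervals were wide, and for 4 of the 18 they lay within 1 log2 unit of 0, beside 82.9% of all tested genes. With the difference between log2 Dbp and log2 Arntl of each library as a covariate, chosen after the data were seen, 17 genes passed between CoJAX and TAC, 10 of them among the 12, and 3 PPARα targets passed in place of 1.

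**Figure D5:**
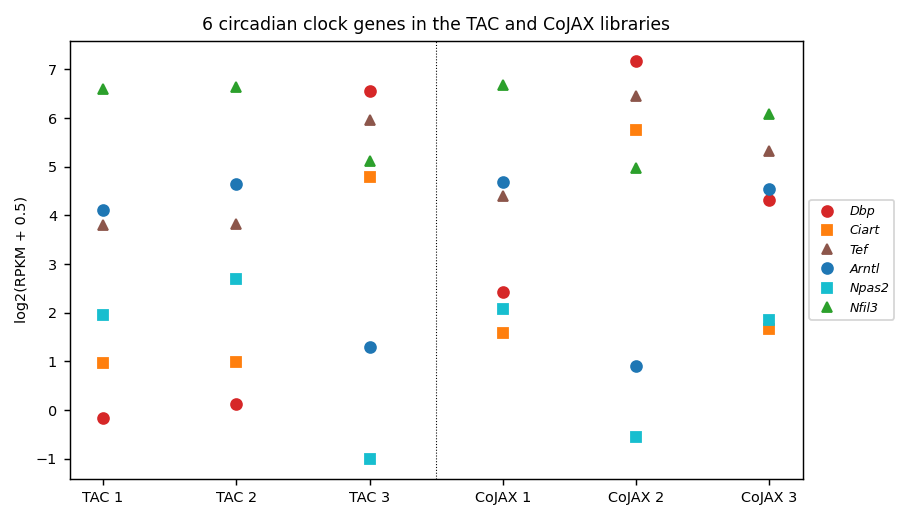
Level as log2(RPKM + 0.5) (vertical axis) of 6 circadian clock genes in each TAC and CoJAX library (horizontal axis, groups parted by the dotted line). Dbp, Ciart and Tef are high and Arntl, Npas2 and Nfil3 low in TAC 3 and CoJAX 2, 1 library of each group.

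Acute phase genes, which hepatocytes make in response to inflammatory signals, were lower in the mean in CoJAX for 19 of 25 measured members, with a median difference of -0.19, and 0 passed the test. Lcn2, which encodes the iron-scavenging protein lipocalin 2, had 62.1, 227 and 100 RPKM in TAC and 17.1, 27.0 and 18.3 in CoJAX (-2.43 ± 0.99, adjusted p = 0.525). Saa2, a serum amyloid A gene, had 968, 930 and 509 in TAC and 468, 186 and 156 in CoJAX (-1.69 ± 0.48, adjusted p = 0.291). Orm2, an orosomucoid gene, had 324, 469 and 129 in TAC and 75.6, 51.4 and 49.4 in CoJAX (-2.22 ± 0.70, adjusted p = 0.369). The CoJAX values of these 3 genes lay below the TAC values, whose own spread was wide. In all, the groups did not overlap in 4 of the 25 members, beside 12.8% of all tested genes. The difference was positive in 6 members, Socs3 among them, with a mean RPKM of 6.03 in TAC and 11.6 in CoJAX. Lcn2 and Orm2 passed without CoTAC 2 (adjusted p = 0.0348 and 0.0411). Neutrophil markers, summed over 8 genes, reached 7.48 to 74.5 RPKM in TAC and 7.46 to 14.6 in CoJAX, with the high value in 1 TAC library. In 16 of the 25 acute phase genes the level exceeded 25% of that of Alb, where RPKM fell as depth rose. The part of depth in their differences was not tested.

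Chaperones of the heat shock response were lower in the mean in CoJAX in 14 of 15 members, with a median of -0.21 and 0 past the threshold. The inducible Hsp70 gene Hspa1a had 4.26, 3.04 and 6.60 RPKM in TAC and 1.31, 0.701 and 1.61 in CoJAX (-1.57 ± 0.34, adjusted p = 0.155), and its neighbour Hspa1b had 39.0, 24.9 and 49.0 in TAC and 21.5, 10.6 and 15.5 in CoJAX (-1.22 ± 0.32, adjusted p = 0.25). The copies are nearly identical, so reads could be split between them. Asns, the asparagine synthetase gene of the amino acid response, had 21.3, 34.4 and 26.0 in TAC and 9.61, 9.51 and 2.86 in CoJAX (-1.96 ± 0.44, adjusted p = 0.18). Of the 14 measured members of the amino acid response 0 passed, and 4 were lower and 1 higher at an unadjusted p under 0.05. Over all tested genes that p was reached by 997 of 11446 in either direction.

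Genes induced by glucocorticoids had differences of either sign. Fkbp5, a glucocorticoid-induced co-chaperone, had 28.3, 44.3 and 48.5 RPKM in TAC and 76.4, 114 and 63.1 in CoJAX (1.05 ± 0.29, adjusted p = 0.282). Tsc22d3, another glucocorticoid-induced gene also called Gilz, had 264, 281 and 220 in TAC and 161, 132 and 160 in CoJAX (-0.75 ± 0.19, adjusted p = 0.238). Neither passed, and the groups overlapped in neither. Of the 13 glucocorticoid and metallothionein genes listed 0 passed.

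Lists of metabolism and immunity gave 0 calls as well. Only 0.105% of all tested genes passed, so 0 calls do not set these lists, or those above, apart from other genes. Bile acid synthesis had 0 of 16 past the threshold and a median of 0.05. Cyp7a1, its rate-limiting enzyme, had 9.23, 19.98 and 16.5 RPKM in TAC and 9.84, 63.3 and 9.10 in CoJAX (0.30 ± 0.61, adjusted p = 0.89), with CoJAX 2 as the high library. Cholesterol synthesis had 0 of 24 (median -0.14), lipogenesis 0 of 25 (median 0.09), the urea cycle and amino acid breakdown 0 of 25 (median -0.08) and genes of NRF2 and glutathione 0 of 28 (median -0.06). For the urea cycle list the interval lay within 1 log2 unit of 0 in all 25 members, beside 82.9% of all tested genes. In 15 of these members the level exceeded 25% of that of Alb, where RPKM fell as depth rose. Interferon response genes had 0 of 32 (median -0.02), and 28 of the 32 intervals lay within 1 unit, near the share of 82.9% over all tested genes. Irf1, an interferon-induced transcription factor, had 22.9, 18.9 and 21.2 RPKM in TAC and 35.4, 28.8 and 34.1 in CoJAX (0.63 ± 0.15, adjusted p = 0.217). MHC class II genes had 0 of 7, and genes of microbial sensing 0 of 18. No list other than the substrain genes and the PPARα targets held a gene past the threshold in this fit.

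Differences of genes at very high level leaned below 0. Cytosolic ribosomal proteins were lower in the mean in CoJAX in 24 of 24 members, with a median of -0.21 and 0 past the threshold. Of these, 20 exceeded 25% of the RPKM of Alb. Over the 768 tested genes above that level the median difference was -0.17, and 664 of the 768 were negative, while the median of the other genes was 0.01. Relative depth was higher in CoJAX in the mean and moved with this lean, and its part was not tested.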

How the data were processed

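Per the labels' protocols, poly(A) RNA from TRIzol extracts of liver went into ThruPLEX libraries. A single table of RPKM values per gene and library was deposited by the authors. Per the submitters' processing notes, which state no roles, the tools were Bowtie 1.0.0 and Cuffdiff 2.1.1 and the build mm9. Annotation, strand, read length and duplicate handling: not given in the sources used here. Reads of overlapping genes and antisense partners may therefore be mixed. Of 23936 lines, 27 had a date serial as their name and were left out (0.163% to 0.204% of the RPKM of a library). Value columns with no sample numbered 0.

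The values were analysed as log2(RPKM + 0.5), which understates changes of low genes. Limma-trend (limma 3.58.1, R 4.3.3) took all 12 libraries in 4 groups, which share an estimate of the spread, with two-sided tests, Benjamini-Hochberg adjustment over 11446 genes and a threshold of 0.05. The code was tested on simulated data. Relative depth came from values below 0.6 RPKM, which are whole multiples of what 1 read is worth, and reads were estimated from 327 genes. Read estimates rest on GENCODE transcript lengths, and the authors' annotation may differ. Counting error at low levels is part of the spread. Shared 50-base windows came from GENCODE M21, the coding stretch from its longest open reading frame, and chromosomes from RefSeq (GRCm38.p6). No coordinates of mm9 are given.

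The members, the 43 lists and the tests were chosen with earlier results of these data known. Genes named are those past the threshold (up to 15 a direction, non-overlapping, no small RNAs or unnamed models, otherwise the 5 of smallest p), those called in both pairs, 6 apart in JAX and CoTAC but near here, the 2 to 4 leading members of each list and 12 set genes. The text leaves some out, and some results are not reported here. Snora81, Zfp791, Snord89, Entpd4, Fgfbp3, Crb1, Cyfip2, Nlrp12, Cyp4a31, Cyp4a32, Cyp4a12a, Acot1, Acot4, Vnn1, Pex11a, Acadvl, Fgf21, Lcn2, Dbp, Arntl, Ciart, Tef, Npas2 and Nfil3 were named after their values were seen. Alternatives changed the pseudocount, filter, scaling, libraries, covariates, block and weights.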

Additional observations from a re-analysis of the deposited data

Results flagged for a closer look

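For 7 of the 12 genes that passed between CoJAX and TAC, the Jackson minus Taconic difference was not the same in this pair as in JAX minus CoTAC, by a contrast of the same fit (limma, adjusted over all genes). Values are CoJAX minus TAC less JAX minus CoTAC, in log2(RPKM + 0.5). Cyp4a10 differed by 1.639 (adjusted p = 0.0146), with the larger difference in CoJAX and TAC. Nnt differed by 0.789 (adjusted p = 0.012), with the smaller one there. The genes Fxyd3, Ppp1r14a and Ppp1r10 were lower in the Jackson group of this pair and higher in that of the other, by -2.398 (adjusted p = 0.00138), -1.852 (adjusted p = 0.00185) and -1.921 (adjusted p = 0.0023). Hist1h4f (2.455, adjusted p = 0.00233) and Snora81 (10.641, adjusted p = 0.00395) passed the filter on low values through CoJAX alone. Hist1h4f rests on 3 steps, each at least 1 read, in CoJAX and 0 in TAC, and Fxyd3 on 3 and 10. In the same contrast 34.8% of all genes passed. The 12 genes were picked on their CoJAX minus TAC difference, which is also a term of this contrast. The p-values for these genes are thus not independent of that choice and are no separate support. With relative depth in the fit 0 of these 7 passed, and the lowest adjusted p among them was 0.0848.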

How the results depend on the processing

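The 12 calls became 4 with a pseudocount of 0.1, 3 with a mean of at least 5 RPKM, 5 in a fit of the 6 libraries alone, 5 with relative depth as a covariate, 39 with array weights and 2 without TAC 1 and with depth. Leaving out each library in turn gave 2 to 24 calls, and 8655 to 9542 genes with an interval within 1 log2 unit. The distance to TAC, CoJAX minus JAX, then ranged from -0.148 to -0.0106, and between minus within groups from -0.0155 to 0.0467, negative without TAC 1 or any CoJAX library. Of the genes called in JAX minus CoTAC, those passing here with the same sign (7) became 3 with a pseudocount of 0.1, 3 with the stricter filter, 0 with depth and 12 with array weights (2 to 11 without a library). Those with the opposite sign (3) became 1, 0, 0 and 18 in that order, 1 without a filter, 1 with the replicate block and 0 to 6 without a library. Genes within 1 unit became 150 with depth (3028 to 4568 without a library) and those in neither class 380 with the stricter filter and 40 with depth (463 to 1029 without a library). Near 0, signs turned without a library for Nupl1 (-0.309 to 0.038), Pdzk1ip1 (-0.454 to 0.304), Cox7a1 (-0.184 to 0.301) and Exoc4 (-0.308 to 0.216), and for Pdzk1ip1 with depth (0.057) and with the clock covariate (0.16). The causes were not tested. Titles share replicate numbers, and same-numbered TAC and CoJAX residuals correlated at 0.11, -0.12 and -0.02. With 3 libraries a group, these values cannot decide whether the numbers pair the libraries. The replicate block gave 9 calls, 8 of them among the 12. Values of the 54 genes followed kept direction and side of the threshold in 1217 comparisons with an alternative, lost the call in 104, gained it in 39 and turned in 12. The 104 losses all fall on the 12 called genes, and most of the 1217 on genes that did not pass. The call held in 26 of 26 alternatives for Wdfy1, but in 9 of 26 for Mid1 and 6 of 21 for Snora81. The added alternatives (depth without TAC 1, clock covariate, contrast of the pairs) were chosen after seeing the data. At an estimated 1490000 to 3530000 reads, genes of a few RPKM rest on few reads.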

Other observations

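Of the 22 genes whose 95% interval lay wholly beyond 1 log2 unit, 7 passed the threshold and 15 did not. Among the latter was Zfp791, a zinc finger gene chosen after its values were seen, with 3.55, 7.42 and 9.04 RPKM in TAC and 0.399, 1.54 and 0.693 in CoJAX (-2.38 ± 0.40, limma adjusted p = 0.0541). JAX livers held at most 0.544 RPKM of Zfp791 and CoTAC livers 2.86 to 4.84. Snord89, a small nucleolar RNA also chosen after its values were seen, shows what a large RPKM can rest on. It was listed at 0 in TAC and JAX and at 973.1, 1669 and 563.7 RPKM in CoJAX, which were 1, 2 and 1 steps, and at 576 RPKM, 1 step, in CoTAC 2 (10.92 ± 1.97, limma adjusted p = 0.0647).

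Kupffer cell markers were lower in the mean in CoJAX in 12 of 13 measured genes, with a median difference of -0.31 and 0 past the threshold. The lead genes were Timd4, a phagocytic receptor, with 5.31, 5.34 and 5.21 RPKM in TAC and 3.66, 2.96 and 3.24 in CoJAX (limma adjusted p = 0.622), and Cd68, a lysosomal protein of macrophages, with 17.2, 15.2 and 14.8 in TAC and 9.78, 11.8 and 13.3 in CoJAX (limma adjusted p = 0.678). In bulk tissue fewer cells of a type and less RNA per cell cannot be told apart. Stellate cell and fibroblast markers were higher in the mean in CoJAX in 12 of 15, with a median of 0.20 and 0 past the threshold. Xist was listed at 0 in all 6 libraries and Ddx3y, on the Y chromosome, was at 17.9 to 30.2 RPKM, the pattern of male liver.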
